A study of Mus musculus with 2 samples.

Results

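Antigen presentation genes of mouse colon T cells are described here through 10 genes: 6 of the MHC class I pathway (B2m, H2-K1, H2-D1, Tap1, Psmb8 and Psmb9) and 4 of the MHC class II pathway (H2-Aa, H2-Ab1, Cd74 and H2-DMa). They are taken by name from 32285 genes in the count matrices, and all 10 had a row in both. The study sequenced transcript 3' ends of single cells in droplets, with unique molecular identifiers (UMIs) marking single molecules. The cells are labelled as gamma-delta T lymphocytes, and the mice were C57BL/6J at 18 to 20 weeks of age. TIL is the 1 library from colon tumor and IEL the 1 library from normal colon; no genotype, treatment or number of animals is given for either. The labels state no sort or gate, and the same protocol text, which names tumor tissue, is attached to both. With 1 library a group, tissue, animal and library cannot be told apart and no p-value is given. Intervals are exact 95% intervals that cover counting error only.

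MHC class I molecules are made by nearly all nucleated cells. They present peptides cut by the proteasome and carried into the endoplasmic reticulum by the TAP transporter, on a heavy chain bound to beta-2-microglobulin. MHC class II molecules are made mainly by dendritic cells, B cells and macrophages, and they present peptides from the endosome; mouse T cells are generally regarded as making little or none. Interferon induces genes of both pathways, class I through IRF1 and NLRC5 and class II through CIITA.

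The TIL library held 94953893 UMIs in 13245 cell barcodes and the IEL library 69414155 UMIs in 9398. T cells, taken as barcodes with at least 2 of Cd3d, Cd3e and Cd3g and fewer than 3 of 6 myeloid markers (C1qa, C1qb, C1qc, Csf1r, Lyz2 and Cd68), numbered 12088 in TIL and 9059 in IEL, with median depths of 6488 and 6874 UMIs. Myeloid cells, with at least 3 of those markers, numbered 122 in TIL, at a median of 10719 UMIs, and 0 in IEL. Of the 122, 64 also held at least 2 Cd3 genes and 37 held none; 35 cells had exactly 3 markers and 64 had 2, 1 short of the rule. The delta chain gene Trdc was detected in 98.9% of TIL and 97.0% of IEL T cells. The alpha chain gene Trac, whose product marks alpha-beta T cells, was detected in 38.2% of TIL and 78.0% of IEL T cells. Whether cells with a Trac UMI are alpha-beta T cells despite the label was not tested, so the cells are called T cells here. Cells with a gamma-delta receptor UMI and no Trac numbered 7455 in TIL and 1981 in IEL. Both libraries shared 33 barcodes, 29 of them kept in both. Levels are UMIs per 1000000 UMIs of a class (CPM). Haemoglobin genes stood at 1868 CPM in TIL T cells and 0.146 CPM in IEL T cells, a neutrophil list at 172 and 0.0438 CPM and an epithelial list at 16.3 and 59.6 CPM; the part of these in the values below was not tested.

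In GRCm38 coordinates, 8 of the 10 genes lie on chromosome 17 in the MHC region and B2m lies on chromosome 2, outside it, as does Cd74. Tap1 (34187553 to 34197225, plus strand) and Psmb9 (34181987 to 34187764, minus strand) are neighbours that point away from each other, and the RefSeq start sites of the pair are 226 bases apart. Their 250-base upstream windows therefore cover 225 of the same bases read from opposite strands, and are printed because the levels of the pair differed between the libraries in unlike ways. The B2m and H2-Aa windows are printed for the shared subunit of class I and the alpha chain of class II. The sequences are RefSeq's, on build GRCm38.p6, printed 5′ to 3′ along the gene's own strand up to the base before the start site; capitals mark motif matches.
Tap1, chr17:34187306-34187555, plus strand: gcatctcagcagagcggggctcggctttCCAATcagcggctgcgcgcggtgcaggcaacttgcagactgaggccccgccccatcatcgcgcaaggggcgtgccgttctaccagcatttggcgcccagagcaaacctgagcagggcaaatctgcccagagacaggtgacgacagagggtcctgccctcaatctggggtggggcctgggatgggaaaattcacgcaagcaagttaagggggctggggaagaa
Psmb9, chr17:34187331-34187580, minus strand: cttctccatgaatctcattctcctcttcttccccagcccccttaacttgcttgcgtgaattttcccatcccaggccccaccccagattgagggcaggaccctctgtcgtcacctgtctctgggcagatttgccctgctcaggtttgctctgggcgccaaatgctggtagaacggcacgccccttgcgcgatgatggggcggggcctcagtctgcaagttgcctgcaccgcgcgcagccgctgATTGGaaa
B2m, chr2:122147437-122147686, plus strand: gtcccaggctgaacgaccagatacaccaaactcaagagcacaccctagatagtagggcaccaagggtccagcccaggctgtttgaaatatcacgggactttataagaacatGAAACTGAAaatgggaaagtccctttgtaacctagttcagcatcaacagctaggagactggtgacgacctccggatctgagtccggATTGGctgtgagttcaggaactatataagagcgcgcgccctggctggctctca
H2-Aa, chr17:34287824-34288073, minus strand: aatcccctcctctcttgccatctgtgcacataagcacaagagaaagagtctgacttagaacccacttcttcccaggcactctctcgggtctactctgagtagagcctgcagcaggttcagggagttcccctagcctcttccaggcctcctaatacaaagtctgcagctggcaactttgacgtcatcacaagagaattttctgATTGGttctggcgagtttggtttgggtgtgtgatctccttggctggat

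Windows were available for 8 of the 10 genes, with a pair of start sites each for H2-K1 and H2-DMa, and were searched on both strands for 4 motifs. An interferon response element core, GAAANNGAA, occurred in B2m, 139 bases before the start, and in 7.13% of 32851 mouse promoter windows. A gamma-activated element, TTCNNNGAA, occurred in Psmb8, 97 bases before the start, and in 7.02% of all windows. The Y box core CCAAT occurred in the windows of B2m, H2-K1, H2-D1, Tap1, Psmb9, H2-Aa and H2-DMa, in the last of which only 1 of 2 windows held it, and in 33.8% of all windows. In Tap1 it lay 222 bases and in Psmb9 8 bases before the start, which are the same bases of their shared window. An X box core, AGNNACNGA, occurred in 14.7% of all windows and in none of the 8 genes. Matches to different motifs did not overlap in these genes. These are letter matches and say nothing of binding. Variants of these letters were not searched, so a window without a match may still hold an element of that kind.

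Among class I genes, B2m, H2-K1 and H2-D1 were abundant in T cells of both libraries, and only Psmb9 differed 2-fold between them. B2m, the light chain of every class I molecule, stood at 3604 CPM in TIL T cells and 2139 CPM in IEL T cells, 1.68-fold higher (interval 1.67 to 1.70). H2-K1, a classical heavy chain, stood at 3203 CPM in TIL T cells and 2546 CPM in IEL T cells, a log2 ratio of 0.33. H2-D1, the other classical heavy chain, stood at 3606 CPM in TIL T cells and 2879 CPM in IEL T cells, a log2 ratio of 0.32. With each cell thinned to 2000 UMIs, each of these 3 genes had a UMI in 97.7% to 99.5% of T cells of either library. Each UMI is 1 molecule counted at its 3' end, so CPM is not divided by length. Of 50-base windows in the last 500 bases of the transcript, 9.53% in H2-D1 and 0.443% in H2-K1 also occur in transcripts of other genes, so their counts are less certain.

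The peptide supply genes gave lower levels and moved in unlike ways. Tap1, a TAP transporter subunit, stood at 79.2 CPM in TIL T cells and 73.8 CPM in IEL T cells, a log2 ratio of 0.10. Psmb8, an immunoproteasome subunit, stood at 391 CPM in TIL T cells and 497 CPM in IEL T cells, a log2 ratio of -0.34. Psmb9, another immunoproteasome subunit, fell to 85.5 CPM in TIL T cells, against 245 CPM in IEL T cells, a log2 ratio of -1.52 (interval -1.55 to -1.48). It was detected in 39.8% of TIL T cells and 78.5% of IEL T cells, and after thinning in 14.0% and 37.7%, so the difference was also seen per cell. Tap1 and Psmb9, which share the window printed above, thus differed by 0.10 and -1.52 on the log2 scale. The annotated exons of the pair share 212 bases on opposite strands. Those bases lie at the start of both genes, whereas transcript 3' ends were sequenced. The exons of Psmb8 and the antisense gene Gm20496 share 498, and those of H2-DMa and Brd2 share 360. Whether counting used strand is not given in the sources used here, and these counts are uncertain to that extent.

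**Figure D1:**
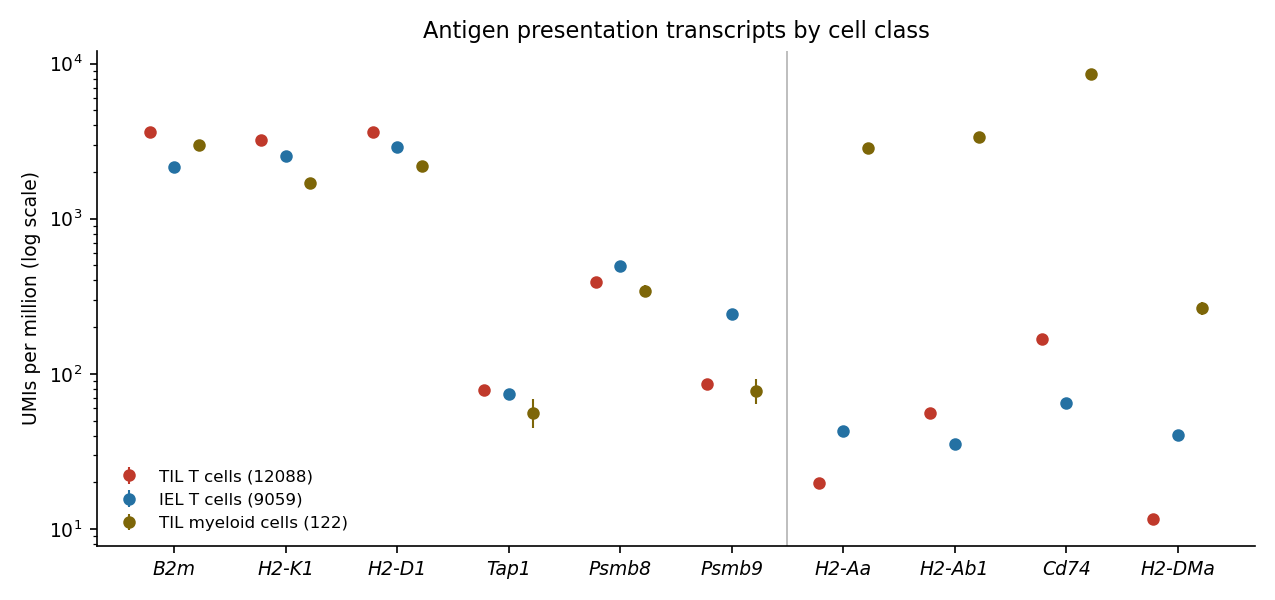
Level of each of the 10 genes in CPM, on a log axis, in TIL T cells, IEL T cells and TIL myeloid cells; bars are exact 95% Poisson intervals, mostly smaller than the points. The 6 class I genes, left of the line, lie close together in all 3 classes, except Psmb9, at 245 CPM in IEL T cells; the 4 class II genes lie far higher in the myeloid cells.

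Class II transcripts were counted in T cells of both libraries at levels far below the class I chains, and Cd74 was past 2-fold higher and H2-Aa and H2-DMa past 2-fold lower in TIL. Cd74, a chromosome 18 gene for the invariant chain that guides class II to the endosome, rose to 169 CPM in TIL T cells, against 64.8 CPM in IEL T cells, 2.60-fold (interval 2.52 to 2.69). H2-Ab1, the beta chain of the I-A molecule, stood at 56.3 CPM in TIL T cells and 35.2 CPM in IEL T cells, a log2 ratio of 0.68. H2-Aa, the alpha chain of I-A, fell to 19.7 CPM in TIL T cells, against 42.9 CPM in IEL T cells, a log2 ratio of -1.12. H2-DMa, a subunit of the peptide editor H2-DM, fell to 11.6 CPM in TIL T cells, against 40.0 CPM in IEL T cells, a log2 ratio of -1.79. Of the alpha and beta chains of I-A, which pair in 1 molecule, the alpha chain was past 2-fold lower, and the beta chain was 1.60-fold higher, short of 2-fold.

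A gene was counted as apart at a ratio of at least 2-fold, with at least 20 CPM in either class and an interval excluding 1. By that rule 1 of the 10 genes was higher and 3 were lower in TIL than in IEL T cells, against a background of 11% higher and 13.7% lower among 6327 genes. The 6 myeloid markers together stood at 14.7 CPM in TIL T cells and 2.61 CPM in IEL T cells, with C1qc at 0 in IEL. The median log2 ratio was 0.21 over the class I genes, -0.22 over the class II genes and -0.10 over all genes. In cells with a gamma-delta receptor UMI and no Trac the same 4 genes were apart, with log2 ratios of 1.63 for Cd74, -1.42 for Psmb9, -1.02 for H2-Aa and -1.90 for H2-DMa, against a background of 11.4% higher and 13.7% lower among 6330 genes. The other 6 had 0.83 for B2m, 0.40 for H2-K1, 0.37 for H2-D1, 0.048 for Tap1, -0.28 for Psmb8 and 0.85 for H2-Ab1. Requiring 50 CPM left Psmb9 alone among those lower, since the other 2 did not reach that level in either library.

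The make-up of the class II UMIs also differed. Cd74 made up 65.8% of the class II UMIs in TIL T cells, 35.4% in IEL T cells and 56.7% in TIL myeloid cells. H2-Aa made up 7.71%, 23.5% and 19.1% in the same order of classes, and H2-DMa 4.52%, 21.9% and 1.76%. H2-Ab1 varied least, at 21.99%, 19.2% and 22.5%. For H2-Ab1 the intervals of TIL T cells and TIL myeloid cells overlap; for the other 3 genes no 2 of the classes overlap.

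TIL myeloid cells held class II transcripts far above TIL T cells and class I transcripts within 2-fold of them. H2-Aa stood at 19.7 CPM in TIL T cells and 2872 CPM in TIL myeloid cells, so the T level was 0.687% of the myeloid level. The same share was 1.67% for H2-Ab1 (56.3 CPM in T and 3371 CPM in myeloid cells), 1.98% for Cd74 (169 and 8509 CPM) and 4.38% for H2-DMa (11.6 and 265 CPM). For the class I genes it lay between 111% for Psmb9 and 190% for H2-K1. By the rule above 4 of 10 genes were lower in T cells, the class II genes, and 0 were higher, against a background of 14.1% lower and 14.8% higher among 6139 genes. The median of all genes was shifted by 0.29 on the log2 scale in this comparison; relative to it B2m, Psmb8 and Psmb9 came out slightly lower rather than higher in T cells, at -0.014, -0.089 and -0.14. Although the myeloid cells were 0.983% of TIL cells, they held 45.3% of the library's class II UMIs, against 46.7% in T cells; in IEL, T cells held 99.1%. In the 37 myeloid cells with no Cd3 UMI the class II levels were higher still, at 4894 CPM for H2-Aa and 15203 CPM for Cd74. Against those 37 cells H2-K1 and Tap1 were past 2-fold higher in TIL T cells, with log2 ratios of 1.36 and 1.28. Of 6 other class I genes measured against all 122 myeloid cells 3 were higher in TIL T cells (background 14.8%). These were H2-Q4 (1.37), H2-Q6 (1.59) and H2-Q7 (1.46).

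Myeloid transcripts that T cells are not known to make were used as tracers of myeloid RNA free in the suspension. Their use assumes that such RNA keeps 1 ratio to its source, which was not tested. Over 10 other myeloid transcripts the level in TIL T cells was 0.0497% (Ms4a7) to 1.08% (C5ar1) of the myeloid level, with a median of 0.0982%; Apoe, the most abundant, gave 0.0964%. The 6 markers that define the class are low in T cells in part by that rule, and ran from 0.0344% to 0.648%. At the median tracer, the level that myeloid RNA would give was 2.82 CPM for H2-Aa, 3.31 CPM for H2-Ab1, 8.36 CPM for Cd74 and 0.260 CPM for H2-DMa. The T levels were 6.999-, 17.0-, 20.2- and 44.6-fold those values, with a median of 18.6-fold. At the highest tracer, C5ar1, the values given would be 31.0 CPM for H2-Aa, above its measured level, and 91.9 CPM for Cd74, below it. S100a8 and S100a9, neutrophil transcripts also found in the myeloid class, stood at 5.12% and 5.25% of the myeloid level, above all 4 class II genes, and at 0.0935% and 0.0917% of their level in 45 TIL cells marked as neutrophils. Both are in the gene list that marked those cells, so their level there is high in part by that choice. For the class I genes, myeloid RNA at the median tracer amounts to 0.0518% to 0.0883% of the T level.

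**Figure D2:**
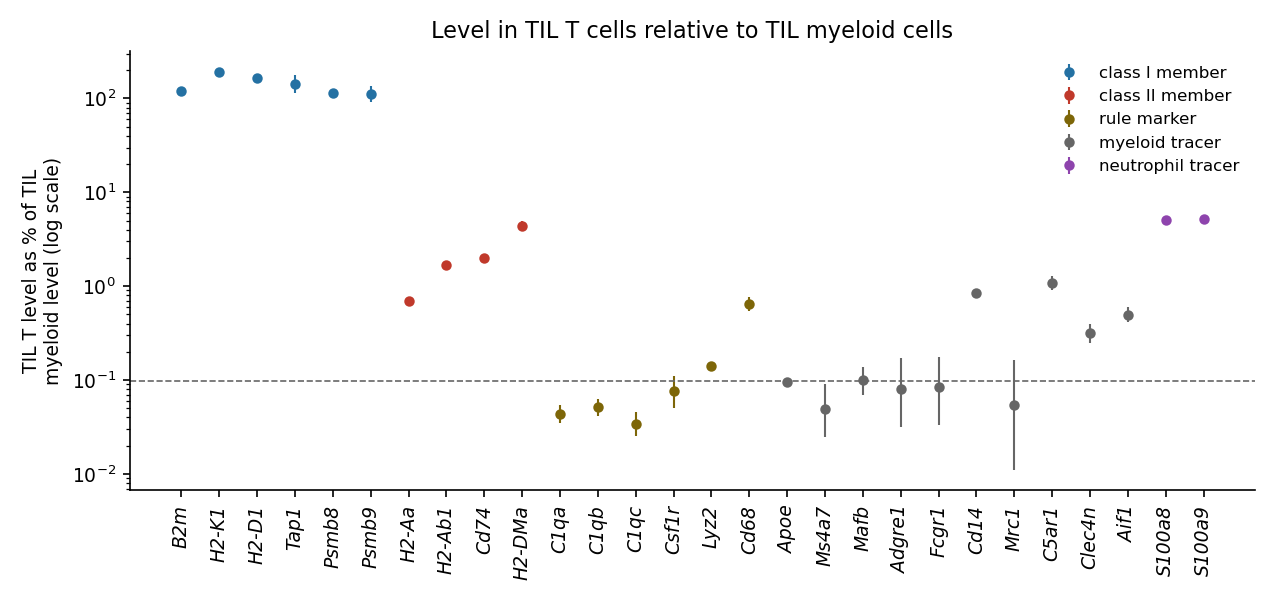
Level in TIL T cells as a percentage of that in TIL myeloid cells, on a log axis, for the 10 genes, the 6 markers that define the myeloid class, 10 other myeloid tracers and 2 neutrophil transcripts; bars are exact 95% intervals and the dashed line is the median tracer, 0.0982%. The class I genes lie above 100%, the class II genes between 0.687% and 4.38%, and the tracers between 0.0497% and 1.08%.

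Other sources were set beside the same genes. In 11 TIL cells marked as B cells, Cd74 stood at 14718 CPM, so the T level was 1.15% of it, while the B cell transcripts Cd79a and Ms4a1 stood at 0.0185% and 0.00845% of their level there and Ighd at 0.188%. Cd79a and Ms4a1 are in the gene list that marked those cells, and Ighd is not. In the 45 TIL cells marked as neutrophils, which make little class II at rest, H2-Aa and H2-DMa were at 0 UMIs, H2-Ab1 at 2 and Cd74 at 18, or 78.9 CPM. Cd74 and H2-Ab1 levels in TIL T cells were 213% (interval 135% to 360%) and 642% (interval 178% to 5304%) of those in the neutrophil-marked cells. After thinning, Cd74 had a UMI in 16.4% of TIL T cells (median depth 6488 UMIs). The share in the neutrophil-marked cells was 15.9% (interval 6.64% to 30.1%, median depth 4844 UMIs). The share in T cells lay within that interval. The thinned shares in TIL T cells were 7.76% for H2-Ab1, 2.11% for H2-DMa and 1.83% for H2-Aa. The intervals in neutrophil-marked cells had upper ends of 12.02%, 8.04% and 8.04%, above those shares. For H2-DMa and H2-Aa, at 0 UMIs there, the interval starts at 0, so shares this low could not lie outside it. With so few neutrophil-marked cells these intervals are wide and do not show the classes to be alike. Without thinning, the shares in TIL T cells were 33.1% for Cd74, 22.6% for H2-Ab1, 6.97% for H2-DMa and 5.39% for H2-Aa. Whether the class II UMIs of the neutrophil-marked cells, or those of the T cells, come from free RNA was not tested.

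IEL T cells had class II transcripts without a myeloid class in the library. C1qa, C1qb, C1qc, Csf1r and Lyz2 summed to 7 UMIs in all IEL T cells, S100a8 and S100a9 to 0, and the 10 tracers to 178, of which 119 were Aif1. The 4 class II genes summed to 12533 UMIs in the same cells. A UMI was found in 17.2% of IEL T cells for H2-Aa, 17.8% for H2-Ab1, 20.0% for Cd74 and 25.8% for H2-DMa. After thinning, these shares were 6.73% for H2-Aa, 6.18% for H2-Ab1, 9.05% for Cd74 and 7.61% for H2-DMa. In 6 IEL cells marked as epithelial, H2-Aa and H2-Ab1 were at 0 UMIs and Cd74 and H2-DMa at 1 each, too few to set a background. Markers of other class II-bearing cells in IEL T cells were a dendritic cell list at 0.540 CPM, with 5 of its 7 genes at 0, and a B cell list at 22.2 CPM, with Pax5 at 0; the part of these in the class II UMIs was not tested.

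Class II UMIs were spread over many T cells and were also concentrated in a few. No class II UMI was found in 52.8% of TIL and 49.0% of IEL T cells, and after thinning in 76.3% and 76.6%. Cells with at least 10 class II UMIs were 371 in TIL, 3.07% of T cells with 42.4% of the class II UMIs, and 186 in IEL, 2.05% with 26.8%. In those TIL cells the median depth was 10864 UMIs, against 6403 in the other TIL T cells, and the dendritic cell list stood at 43.0 CPM against 5.06 CPM and the 6 myeloid markers at 38.2 against 13.5 CPM. The neutrophil list stood at 24.8 against 180 CPM, the plasma cell list at 40.2 against 212 CPM and the T cell list at 2993 against 3908 CPM in the same TIL cells. In those IEL cells the epithelial list stood at 139 CPM, against 57.4 CPM in the other IEL T cells, and the median depth was 7893 UMIs against 6863. The part of doublets in either was not tested. Without cells of at least 10 class II UMIs, a comparison chosen after the data were seen, the log2 ratios of TIL over IEL T cells were 1.26 for Cd74, 0.56 for H2-Ab1, -2.15 for H2-Aa and -2.06 for H2-DMa.

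**Figure D3:**
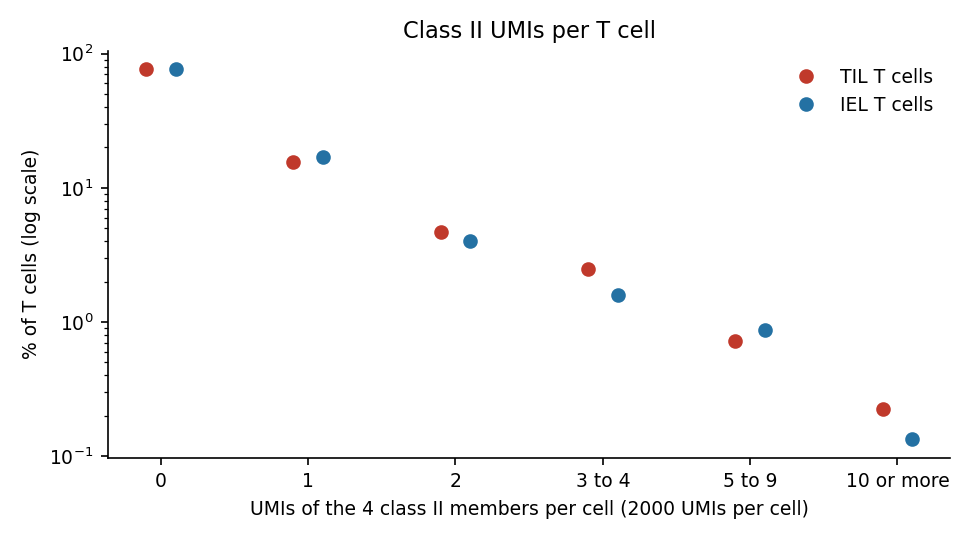
Percentage of T cells, on a log axis, by the number of UMIs of the 4 class II genes per cell, each cell thinned to 2000 UMIs. TIL and IEL T cells lie close together at 0 UMIs, with 76.3% and 76.6% of cells, and both tail off to under 1% at 5 UMIs and more.

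In TIL T cells H2-Aa and Cd74 were higher where more of the myeloid markers were detected. In TIL T cells with 2, 1 and 0 of the 6 markers (39, 757 and 11292 cells), H2-Aa stood at 583, 48.8 and 14.3 CPM and Cd74 at 1789, 237 and 154 CPM. B2m stood at 3545, 3586 and 3606 CPM in the same cells. Its levels in all TIL T cells (3604 CPM) and TIL myeloid cells (2974 CPM) are close, so myeloid RNA could move it little. B2m is therefore no contrast to H2-Aa here. The part of myeloid RNA or of depth in these values was not tested. In T cells with none of the markers the TIL over IEL log2 ratios were -1.58 for H2-Aa and 1.26 for Cd74, so both stayed apart there.

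Across gated ranges of T cells, class I chains varied little and the class II genes and Psmb9 more. Ranges were cut by detected markers and are not cell types: cytotoxic (at least 4 of 8 genes such as Gzma and Gzmb), IL-17 (at least 3 of 8 genes such as Il17a and Il23r), both (mixed), recirculating (at least 3 of 5 genes such as Ccr7 and S1pr1) or none. TIL T cells were 5922 IL-17-gated, 1641 cytotoxic-gated, 1457 mixed, 487 recirculating and 2581 ungated; IEL T cells were 8861 cytotoxic-gated and 131 ungated, with 67 in the other 3 ranges. Many TIL cells lie near a cut, with 2574 holding 3 and 1440 holding 4 of the cytotoxic genes. H2-K1 ran from 2996 CPM (recirculating) to 3402 CPM (ungated) over the TIL ranges, and Tap1 from 71.0 CPM (recirculating) to 85.2 CPM (mixed).

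In IL-17-gated TIL cells H2-DMa fell to 7.71 CPM, against 30.3 CPM in cytotoxic-gated TIL cells, a log2 ratio of -1.97, and H2-Aa fell to 14.0 CPM, against 33.2 CPM, a log2 ratio of -1.25. Cd74 stood at 179 CPM in IL-17-gated and 114 CPM in cytotoxic-gated cells, and Psmb9 at 76.2 and 126 CPM. The log2 ratios of the others were 0.22 for B2m, -0.075 for H2-K1, 0.24 for H2-D1, -0.023 for Tap1, -0.30 for Psmb8 and 0.034 for H2-Ab1. H2-DMa and H2-Aa were the 2 of 10 genes that were lower by the rule and 0 were higher, against a background of 6% lower and 6.09% higher among 5813 genes. In recirculating TIL cells the 4 class II genes stood at 4.49 CPM for H2-Aa, 17.2 for H2-Ab1, 79.6 for Cd74 and 21.7 for H2-DMa. The Lyz2 level, a myeloid marker, was 19.5 CPM in cytotoxic-gated, 6.80 CPM in IL-17-gated and 3.36 CPM in recirculating cells, and its part in these values was not tested.

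When only cytotoxic-gated cells were compared, a comparison chosen after the data were seen, 0 of the 10 genes reached 2-fold between TIL and IEL, against a background of 4.9% higher and 6.35% lower among 6138 genes. Psmb9 stood at 126 CPM in cytotoxic-gated TIL cells and 246.5 CPM in cytotoxic-gated IEL cells, a log2 ratio of -0.97. Cd74 stood at 114 and 65.1 CPM (0.80), H2-Aa at 33.2 and 43.4 CPM (-0.39), and H2-DMa at 30.3 and 40.4 CPM (-0.42). B2m stood at 3153 and 2140 CPM (0.56). The log2 ratios of the others were 0.37 for H2-K1, 0.12 for H2-D1, 0.076 for Tap1, -0.088 for Psmb8 and 0.54 for H2-Ab1. All 10 genes kept the direction they had over all T cells, though the Tap1 interval, -0.028 to 0.18, covered both directions. In the same cells the neutrophil list stood at 109.5 CPM for TIL and 0.0446 CPM for IEL, the epithelial list at 31.7 and 60.0 CPM and the 6 myeloid markers at 25.7 and 2.65 CPM; their part in these values was not tested. In the 131 ungated IEL cells H2-Aa stood at 8.52, H2-Ab1 at 7.10, Cd74 at 8.52 and H2-DMa at 27.0 CPM, from 5 to 19 UMIs each.

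**Figure D4:**
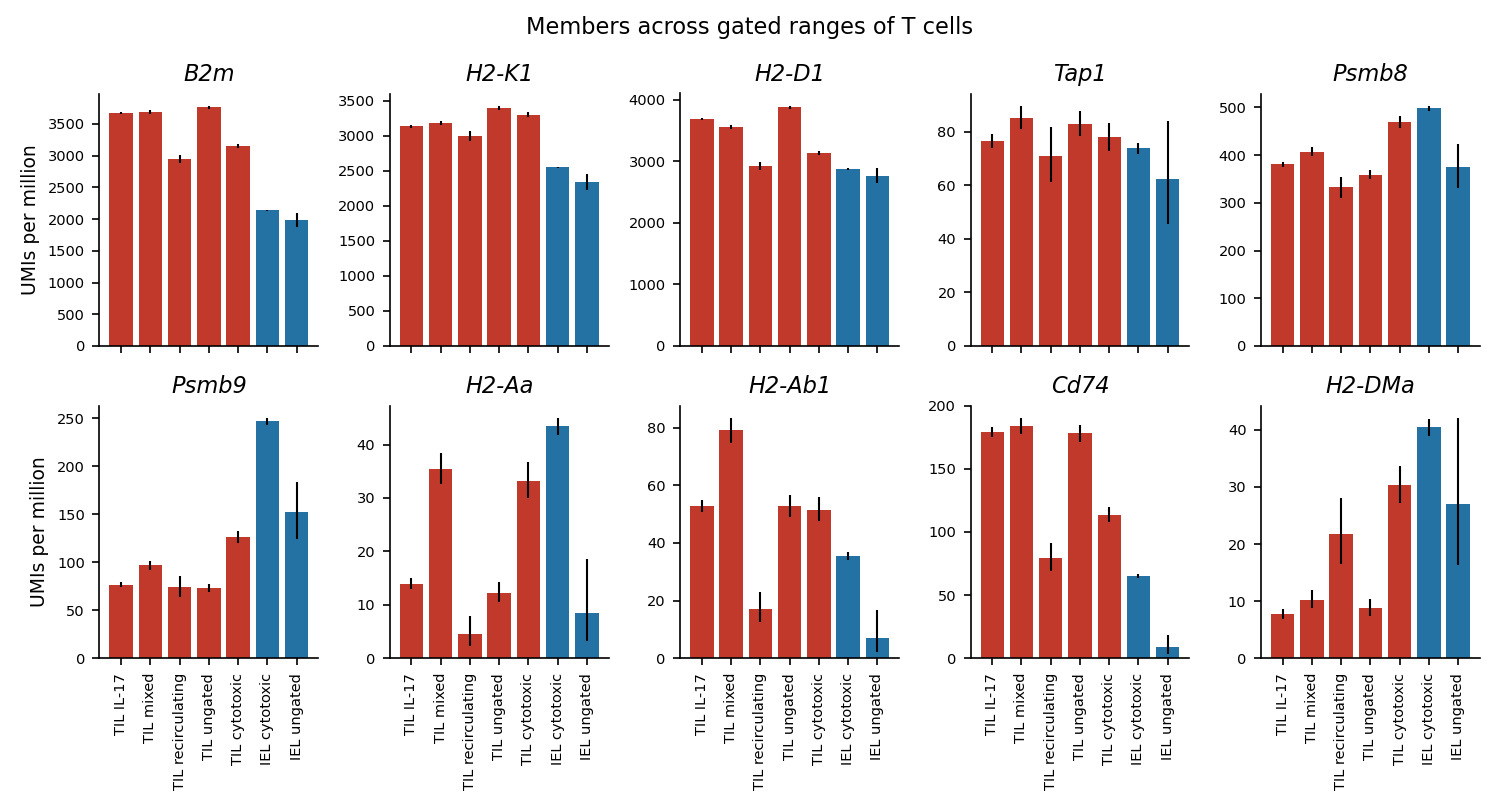
Level of each of the 10 genes in CPM, from 0, in 5 gated ranges of TIL T cells (red) and 2 of IEL T cells (blue); bars carry exact 95% Poisson intervals. B2m, H2-K1, H2-D1 and Tap1 vary little among TIL ranges, Psmb9 is highest in IEL cytotoxic-gated cells at 246.5 CPM, and H2-DMa falls to 7.71 CPM in IL-17-gated TIL cells.

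The genes whose profile over the 7 larger ranges was most like the mean class I profile were Gzma (Pearson r = 0.99), Gpx8, Nol7, Cenpx and Atp5h (r = 0.98 each) among 6798 genes. For the class II profile they were Was, Pgd and Gzmb (r = 0.98 each), Mrpl52 and Unc119b (r = 0.97 each). Gzma and Gzmb also serve in the cytotoxic gate, and the 7 ranges come from 2 libraries, so these values are a description.

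Cells with at least 4 of 9 measured interferon-induced genes, such as Ifit1 and Isg15, held more Tap1, Psmb8 and Psmb9 than other T cells of their library, by less than 2-fold. In 63 such TIL cells Tap1 stood at 130 CPM, against 78.9 CPM in other TIL T cells, Psmb8 at 576 against 390 CPM and Psmb9 at 121 against 85.3 CPM. The log2 ratios of Tap1, Psmb8 and Psmb9 were 0.72, 0.56 and 0.50 in TIL. They were 0.76, 0.38 and 0.46 in 91 IEL cells, and each interval lay above 0. The size for Tap1 depended on depth and gate: its log2 ratio was 1.36 in TIL after thinning to 2000 UMIs and 1.53 in IEL with at least 5 interferon genes in 26 cells. B2m, H2-K1 and H2-D1 had log2 ratios of 0.03, 0.05 and -0.0014 in TIL and 0.18, 0.12 and 0.14 in IEL.

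H2-DMa rose in the interferon-gated TIL cells to 34.3 CPM, from 19 UMIs, against 11.4 CPM in other TIL T cells, while Cd74 stood at 93.9 against 169 CPM. That is 1 of 9 genes measured in TIL and 0 of 10 in IEL that were higher, against a background of 5.76% and 1.51%. In both libraries 0 of the 10 genes were lower by the rule, against 5.2% in TIL and 0.411% in IEL. Of 11 regulators measured in each library 4 were higher in TIL and 1 in IEL, against backgrounds of 5.76% and 1.51%. The median log2 ratio of the regulators was 0.24 in TIL and 0.073 in IEL. Those higher in TIL included Nlrc5 (log2 ratio 1.34), the class I transactivator, and Irf1 (1.07), a transcription factor that interferon induces. Socs1 (1.22), an inhibitor of cytokine signalling, was also higher in TIL. Of the 11 other loading and peptide supply genes 0 moved 2-fold in either library, with a median log2 ratio of 0.11 in TIL and 0.21 in IEL; in TIL they ran from -0.81 for Psme3, a proteasome activator subunit, to 0.95 for Psmb10, the remaining immunoproteasome subunit. In interferon-gated TIL cells H2-Ab1 had a log2 ratio of -0.64 and H2-Aa 5 UMIs. In IEL H2-Aa had 0.56, H2-Ab1 0.45, Cd74 0.23 and H2-DMa -0.15.

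**Figure D5:**
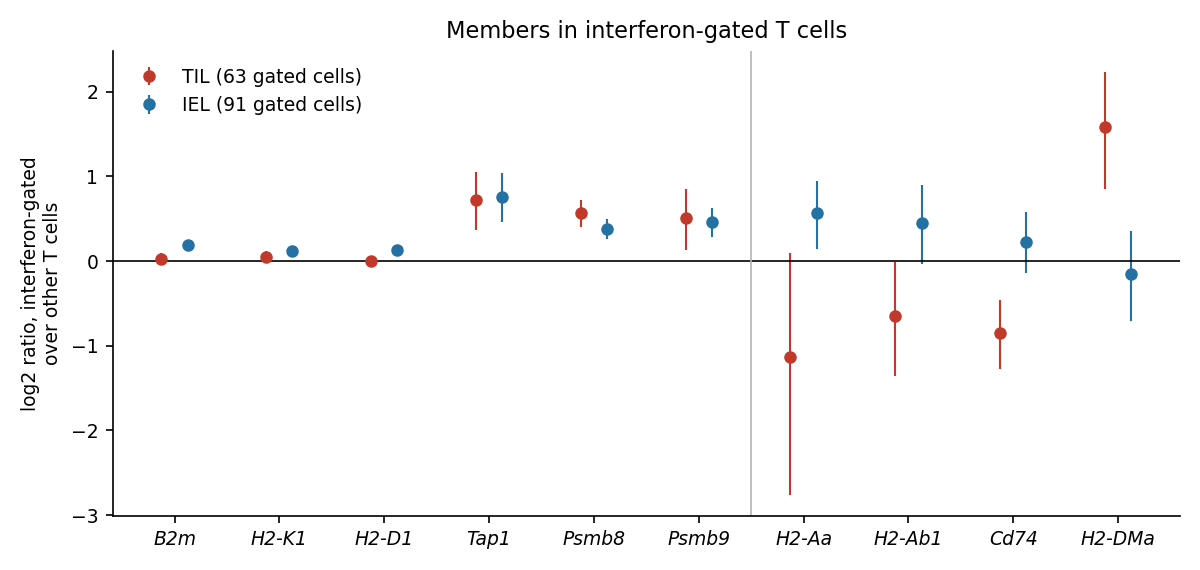
Log2 ratio of interferon-gated over other T cells of the same library for the 10 genes; bars are exact 95% intervals. Tap1, Psmb8 and Psmb9 lie above 0 in both libraries, at 0.38 to 0.76, and B2m, H2-K1 and H2-D1 lie between -0.0014 and 0.18.

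Cycling cells, with at least 4 of 8 genes such as Mki67, also held more Psmb9: 175 CPM in 125 TIL cells, against 83.2 CPM in other TIL T cells, which was apart at 2.10-fold (background 6.2%). In 84 IEL cycling cells Psmb9 stood at 347 CPM, against 242 CPM in other IEL T cells, 1.43-fold. By the rule 1 of 8 genes measured was higher and 0 lower in TIL (background 2.94% lower). In IEL 0 of 10 were higher or lower (background 8% higher and 1.79% lower). Tap1 stood at 122 against 78.1 CPM in TIL and 133 against 72.6 CPM in IEL. H2-K1 and H2-D1 in cycling TIL cells stood at 2362 and 2764 CPM, against 3225 and 3628 CPM in other TIL T cells. The other log2 ratios in TIL were -0.25 for B2m, 0.49 for Psmb8, -0.17 for H2-Ab1 and -0.95 for Cd74, with H2-Aa and H2-DMa under 20 CPM. In IEL they lay between -0.050 for H2-D1 and 0.91 for H2-Ab1. Median depth was 16189 UMIs in cycling TIL cells and 15576 UMIs in cycling IEL cells.

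Lists of other genes of both pathways were read against the same background between TIL and IEL T cells, 11% higher and 13.7% lower. The counts in the class I lists lie near that background, given how short the lists are. Of 9 further class I genes, 6 were measured, 0 rose and 1 fell, H2-T22 (98.7 against 205 CPM, log2 ratio -1.05), a nonclassical class I gene whose product is a known gamma-delta T cell ligand. Of 11 loading and peptide supply genes 2 rose, the chaperone Canx (1.19) and the disulfide isomerase Pdia3 (1.14), and 1 fell, Tapbpl (18.1 against 63.4 CPM, -1.81), a peptide editor related to tapasin. Of 3 constitutive proteasome subunits 0 moved 2-fold; Psmb5, Psmb6 and Psmb7 had log2 ratios of 0.68, 0.17 and 0.77. Psmb6 is the subunit that Psmb9 replaces in the immunoproteasome. It stood at 175 CPM in TIL T cells and 156 CPM in IEL T cells.

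Of 13 further class II genes 4 were measured: the protease gene Ctss rose (64.4 against 25.0 CPM, 1.37), and H2-Eb1, the I-E beta chain (22.3 against 46.2 CPM, -1.05), and Ctsl, another protease (-1.66), fell; Ifi30 had 0.64. All 10 of those measured against TIL myeloid cells were lower in TIL T cells (background 14.1%), from Cd86 (-3.39) to Lgmn (-8.30). Of 14 regulators 12 were measured. Irf1 fell to 70.2 CPM in TIL T cells, against 218 CPM in IEL T cells (-1.64). Ifngr2, an interferon gamma receptor chain, rose (1.57), and Nlrc5 had -0.47. Ciita, the class II transactivator, stood at 1.36 CPM in TIL T cells and 0.978 CPM in IEL T cells, below the level needed for a count, and at 17.2 CPM in TIL myeloid cells. Ifng, the gene of interferon gamma, fell to 5.65 CPM in TIL T cells, against 66.2 CPM in IEL T cells (-3.55). In cytotoxic-gated cells the Ifng log2 ratio was -1.30.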

How the data were processed

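The labels name 10x Genomics single-cell 3' v3 libraries, 1 per tissue. The authors deposited raw UMI counts for each gene in each cell barcode, as whole numbers that were not normalized; per the submitters' processing notes Cell Ranger 6.1.1 and mm10 were used. The cell calling step is not given in the sources used here.

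Cells were kept with at least 500 genes, 1000 UMIs and at most 10% mitochondrial UMIs, which left 93.7% of TIL and 97.1% of IEL barcodes. Counts were summed over each class of cells and given per 1000000 UMIs of the class (CPM), with exact Poisson intervals; ratios have exact conditional intervals, and shares exact Clopper-Pearson intervals at 95% after thinning each cell to 2000 UMIs, which left out 71 TIL and 50 IEL T cells. No p-value was computed, with 1 library a group. No doublet caller was run; leaving out T cells above 15000 UMIs (623 in TIL and 292 in IEL) was an alternative. Clusters, for 1 alternative, were Leiden clusters (igraph 0.11.9). The ratio step was tested on simulated data. Python 3.11.15 and scipy 1.17.1 were used, and gene positions are GRCm38.

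All 10 genes are named, or given by their range, in each comparison. From lists of other pathway genes up to 5 in each direction with the largest ratios were named, plus Ciita, Nlrc5, Irf1 and Ifng; further list members, such as Ifi30, Socs1 and the proteasome subunits, were picked after their values were seen. Some listed genes are not reported here. Mx1, of 10 interferon genes listed, was not measured. The members and lists were chosen with earlier results of these data known.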

Additional observations from a re-analysis of the deposited data

How the results depend on the processing

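No paired analysis was possible because each group is 1 library; for the same reason no replicate could be left out. All 10 genes kept their TIL over IEL direction under 13 of 13 alternatives. For Tap1 the log2 interval covered both directions in cells with a gamma-delta receptor and no Trac, -0.054 to 0.15. It also did so in cytotoxic-gated cells, -0.028 to 0.18. The alternatives with a minimum of 5 or 50 CPM leave every ratio as it was, so they could not change a direction. The 4 class II genes stayed lower in TIL T than TIL myeloid cells under 14 of 14. These include the same CPM minimums. They also include the cut at under 10 class II UMIs, which takes cells rich in class II UMIs out of the T class alone. Those alternatives are therefore no check on this result. The median log2 ratio of the class II genes in TIL T over TIL myeloid cells, -5.78, was -5.72 with a stricter cell filter, -5.93 in T cells with none of 6 myeloid markers, -6.00 at no more than 15000 UMIs, -6.04 after thinning, -6.07 with the median gene ratio set to 1, -6.61 against myeloid cells with no Cd3 UMI and -6.42 in T cells with under 10 class II UMIs. For the class I genes, 0.39 became 0.10 with the median gene ratio set to 1.

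Over IEL T cells, the class II median of -0.22 became -0.084 in cells with a gamma-delta receptor and no Trac, -0.54 without the 6 myeloid markers, -0.62 at no more than 15000 UMIs, -0.69 with classes from clusters, -0.52 after thinning, -0.12 with the median gene ratio set to 1, -0.75 under 10 class II UMIs and 0.073 in cytotoxic-gated cells, where the sign turned. The class I median of 0.21 became 0.31 with the median gene ratio set to 1 and 0.10 in cytotoxic-gated cells. Genes apart numbered 1557, against 2725 with a minimum of 5 CPM, 877 with 50 CPM and 691 in cytotoxic-gated cells. Of the 10 genes, 3 lower became 1 at 50 CPM and 0 in cytotoxic-gated cells, and 1 higher became 0 there. The alternatives on cytotoxic-gated cells, on under 10 class II UMIs and without epithelial markers were chosen after seeing the data.

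The class II level over that given by myeloid RNA, 18.6-fold, was 36.7 at the lowest tracer, 1.69 at the highest, 0.357 with S100a8 and 0.348 with S100a9, whose T levels are 0.0935% and 0.0917% of those in neutrophil-marked cells. S100a8 and S100a9 are in the gene list that marked those cells. S100a8 stood at 72329 CPM there, against 1322 CPM in the myeloid class, so its ratio need not scale myeloid RNA alone. The IEL interferon-gated class I median of 0.28 became 0.50 with at least 5 genes. Where no value shows the cause, the cause was not tested. Precision rests on 122 myeloid cells, with 84 Tap1 UMIs, and on 45 neutrophil-marked cells, and covers counting error only.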
